A study of Mus musculus with 6 samples.

Results

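The aminoacyl-tRNA synthetases were examined in whole lenses of mice with and without Cd24a, the gene of a small glycosylphosphatidylinositol-anchored surface protein. These enzymes were taken from the deposited gene counts by symbol, as the cytosolic forms and the mitochondrial forms whose symbols end in 2. They comprised 37 of the 55416 genes listed, 20 cytosolic and 17 mitochondrial. No measured value entered this choice, although it was made with earlier results of these data known.

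Lens RNA was sequenced from 3 samples with a germline knockout of Cd24a (strain label C57BL/6) and 3 wild-type samples (strain label C57BL/har), each of 2 lenses. All sample labels give an age of 8 weeks, whereas the series text gives 7 weeks. The 2 genotypes carry different strain labels, so strain and genotype cannot be told apart here. The samples of a genotype are biological replicates according to the series text, without mention of batches or litters. No other allele or treatment is named for either group.

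An aminoacyl-tRNA synthetase joins one amino acid to its matching tRNA, the step at which the genetic code is read. Separate nuclear genes serve the cytosol and the mitochondrion for most amino acids, while single genes for glycine and lysine (Gars, Kars) supply both compartments. Mitochondrial glutaminyl-tRNA is made from glutamyl-tRNA by an amidotransferase, so Qars, the glutaminyl enzyme, has no mitochondrial counterpart. Several cytosolic enzymes sit with the scaffold proteins Aimp1, Aimp2 and Eef1e1 in the multisynthetase complex. Many of the cytosolic genes are known targets of ATF4, the transcription factor of the amino acid and integrated stress responses. Lens fibre cells make very large amounts of crystallin before they lose their nuclei and organelles, so translation is central to this tissue.

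Library totals ran from 5384542 to 7302951 gene counts, and no library pair agreed within sampling noise (chi-square per degree of freedom of at least 2.61). Cd24a itself had 17514 to 20656 counts in wild-type libraries and 45 to 71 in knockout libraries, so each library followed its label. Marker levels are given in CPM (counts scaled by library size and TMM factors). Lens fibre markers summed to 241384 to 255952 in wild type and 224444 to 254048 in the knockout. Of 10 tested, 4 were called lower in edgeR (40%, against 4.48% of all genes). Lens epithelium markers summed to 1463 to 1570 CPM in wild type and 1188 to 1224 CPM for the knockout libraries. Of these 8 markers 4 were called lower (50%). Photoreceptor markers, which a clean lens should lack, summed to 171 to 438 CPM (wild type) and 163 to 287 CPM (knockout). All 10 were detected, none at 0, and 1 was called lower (10%). The log2 fold changes of all 10 lay below 0 (median -0.67). At an unadjusted 0.05, 7 were lower in edgeR (70%, against 10.7% of all genes), 0 in DESeq2 and 6 in limma-voom. Pigment epithelium markers summed to 56.4 to 83.9 CPM and 27.6 to 41.9 CPM, with 4 of 8 tested called lower (50%). Cornea and ciliary markers summed to 138 to 161 CPM in wild type and 91.0 to 142 CPM for the knockout libraries. Of these 6 markers Krt12 and Kera had 0 counts in all libraries, Aldh3a1 was called lower and Optc ranged from 15.6 to 85.5 CPM. Blood and immune markers went the other way, with sums of 3.00 to 4.04 CPM in wild type and 4.41 to 9.35 CPM in the knockout. Their sums did not overlap, but only 1 of these 9 markers had enough counts to be tested, and it was not called. Xist reads were abundant in replicate 3 of both genotypes, with 2191 and 2466 counts against at most 4 elsewhere. The Y chromosome genes Ddx3y and Uty had 0 counts in these 2 libraries, against 257 to 311 and 87 to 114 counts in the others. By these genes replicate 3 of each genotype was female and the others male. The part of these markers in the results was not tested except where a value is given.

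Per length, the cytosolic enzymes were mostly more abundant than the mitochondrial ones. Median levels over the 6 libraries were 6.59 CPM per kb of exon for the cytosolic genes and 0.999 CPM per kb for the tested mitochondrial genes, with 2.88 CPM per kb over all tested genes. The most abundant cytosolic gene was Gars, the glycyl enzyme, at 18.7 ± 1.55 CPM per kb in wild type and 17.6 ± 1.47 in the knockout (SD, n = 3 each). Its CPM, not corrected for length, were 53.3, 58.9 and 62.9 in wild type and 58.5, 56.2 and 49.7 in the knockout, with overlap. Sars, the seryl enzyme, was next at 13.4 ± 0.77 and 13.6 ± 0.91 CPM per kb by the mean of all libraries, from 65.0 to 75.2 CPM in the 6 libraries. Hars, the histidyl enzyme, followed at 16.3 ± 0.67 and 10.3 ± 0.70 CPM per kb, and thus stood above Sars in wild type and below it in the knockout. Kars, Nars, Dars and Lars (lysine, asparagine, aspartate and leucine) had wild-type means of 9.89 to 10.6 CPM per kb. Aars, the alanyl enzyme, was lowest by the mean of all libraries, at 2.30 ± 0.14 and 1.91 ± 0.24 CPM per kb, next to Farsa at 2.01 ± 0.55 and 2.24 ± 0.31.

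Among the mitochondrial enzymes Lars2, the leucyl enzyme, stood apart at 8.72 ± 1.75 CPM per kb in wild type and 5.75 ± 1.55 in the knockout. Fars2 (phenylalanine) was next at 2.46 ± 0.12 and 2.62 ± 0.10 CPM per kb, and Iars2 (isoleucine) at 2.17 ± 0.13 and 2.51 ± 0.28. Fars2 ranged from 13.4 to 15.4 CPM over the 6 libraries, and Iars2 from 17.9 to 23.7 CPM, both with overlap. The lowest tested gene was Mars2, the methionyl enzyme, at 0.17 ± 0.04 and 0.16 ± 0.10 CPM per kb. Sars2 alone had too few counts to be tested, with 5 to 12 counts in every library.

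**Figure D1:**
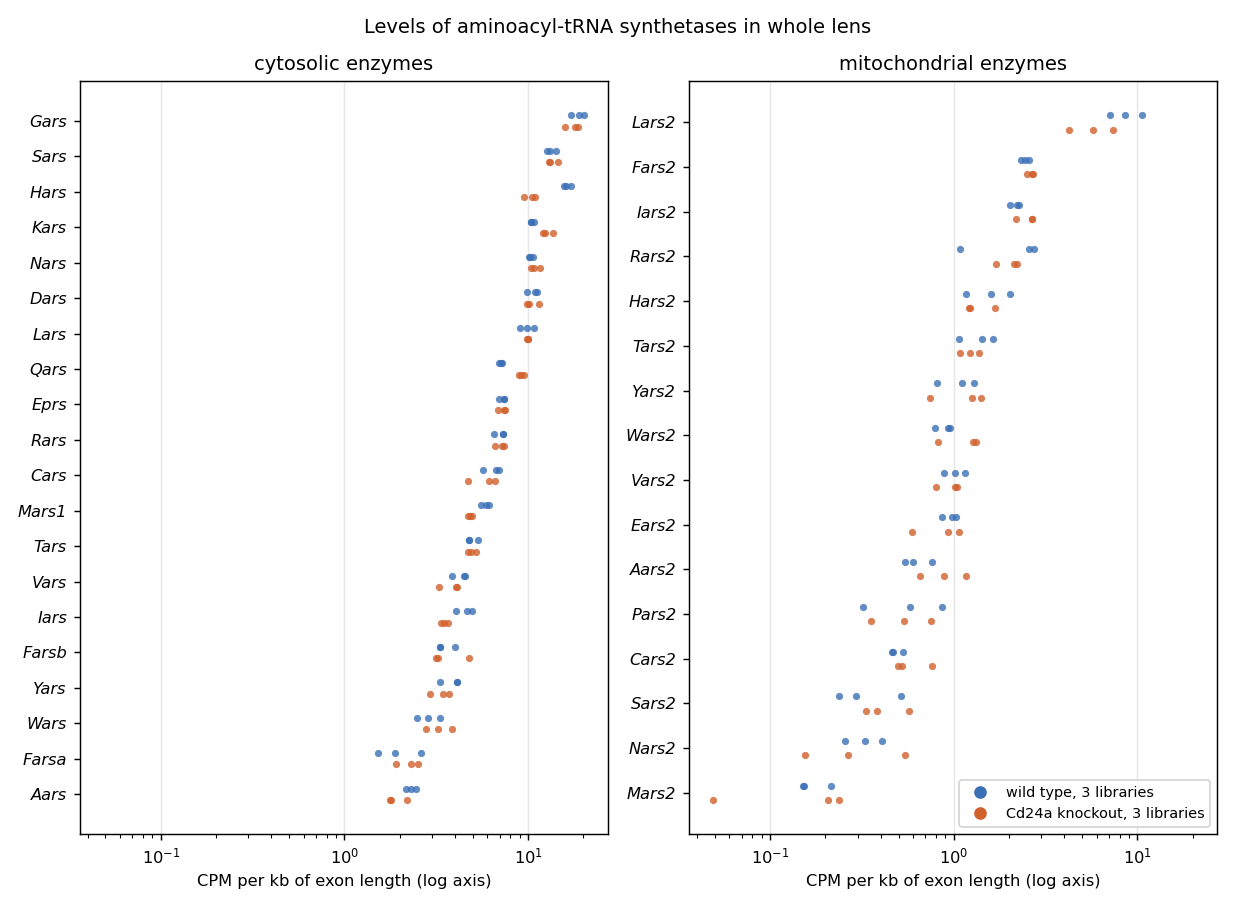
Levels of the synthetases, except 1 that is not reported, in CPM per kb of exon length on a log axis, 1 point per library, for 3 wild-type and 3 Cd24a knockout libraries, ordered by mean level. Cytosolic genes lie mostly above mitochondrial ones, Lars2 stands above the other mitochondrial genes, and the untested Sars2 is included.

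The summed TMM-scaled CPM of the cytosolic enzymes, not corrected for length, differed little between genotypes. It was 769, 777 and 766 CPM in wild-type replicates 1 to 3 and 771, 763 and 749 CPM in knockout replicates 1 to 3. The genotype means were 771 ± 5.38 and 761 ± 11.4 CPM (SD, n = 3 each), and the ranges overlapped. As a share of all gene counts, without TMM scaling, they took 0.0739% ± 0.0017 in wild type and 0.0788% ± 0.0034 (SD, n = 3 each) in the knockout, again with overlap. Corrected for length, the cytosolic sum was 150.6 to 153.0 CPM per kb in wild type and 143.0 to 149.7 in the knockout, without overlap. Its means were 151.7 ± 1.24 and 146.6 ± 3.39 CPM per kb (SD, n = 3 each), of which Hars alone took 16.3 and 10.3. The tested mitochondrial enzymes summed to 210, 182 and 169 CPM for wild type and to 172, 141 and 160 CPM for the knockout. Without Lars2 these sums were 90.2 ± 2.60 CPM and 93.9 ± 2.88 CPM, so the lower mitochondrial sum in the knockout came from that single gene.

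Few single enzymes were found to differ between genotypes. Of the 36 tested, 4 passed an adjusted p of 0.05 in the edgeR quasi-likelihood test and are termed called, 2 lower and 2 higher in the knockout. That is 11.1% of the enzymes, while 7.50% of all 11474 tested genes were called, 4.48% lower and 3.02% higher. Without adjustment 7 enzymes passed 0.05 (19.4%, against 20.2% of all genes), 5 lower (10.7% of all genes) and 2 higher (9.47%). The ranges of the genotypes did not overlap for 5 enzymes (13.9%, against 24.4% of all genes), 3 lower (12.4% of all genes) and 2 higher (12.1%). These shares lie near the background or below it. By class, 1 cytosolic gene fell and 2 rose among 20 (15%), and 1 mitochondrial gene fell among 16 (6.25%). No mitochondrial gene was called higher in edgeR, DESeq2 or limma-voom, and 0 passed an unadjusted 0.05 in that direction with any of these tools. The median log2 fold change was -0.002 for the cytosolic class, -0.07 for the mitochondrial class and 0.004 for all tested genes. With scaling by library size alone all 3 medians lay higher, at 0.11, 0.04 and 0.11.

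**Figure D2:**
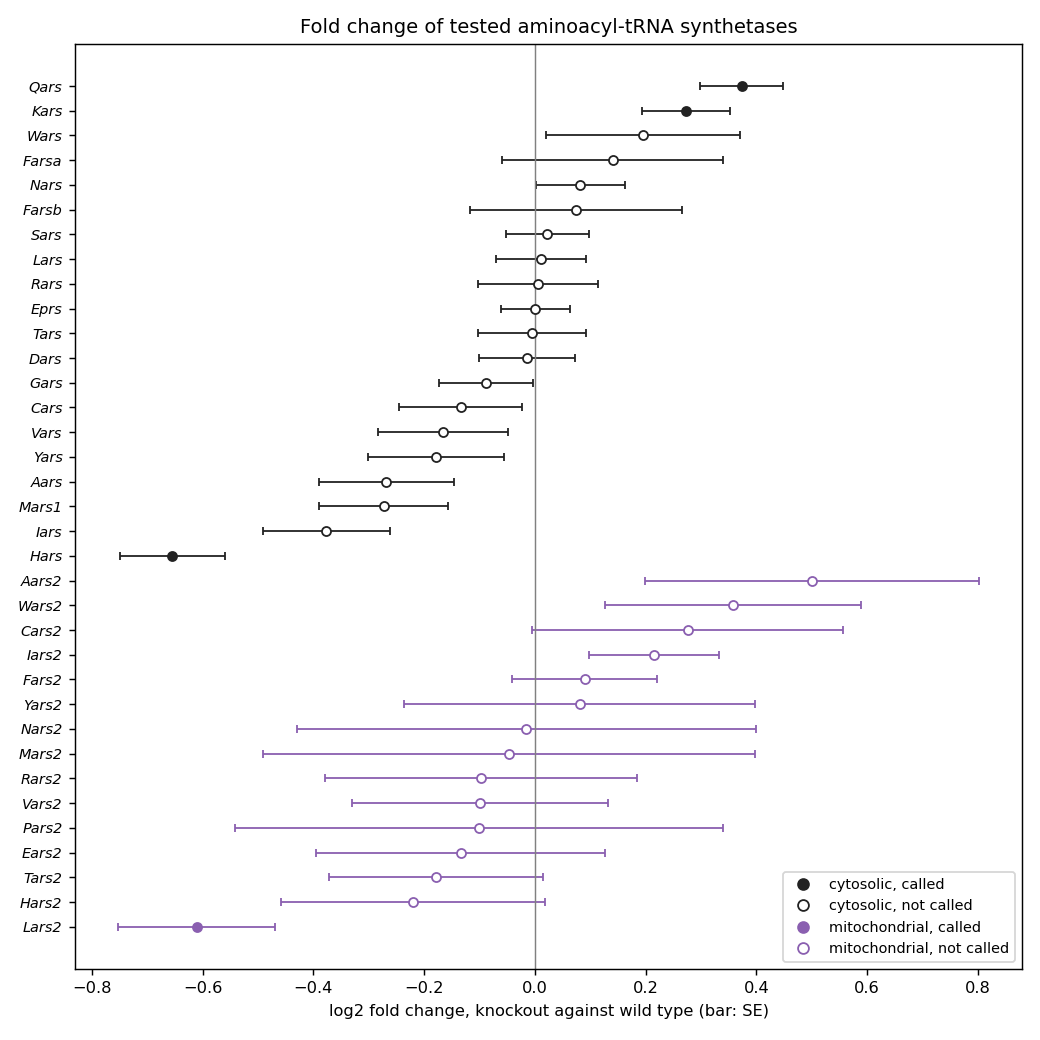
Log2 fold change (knockout against wild type) of the tested synthetases, except 1 that is not reported, with its SE, filled where the edgeR adjusted p was at most 0.05. The 4 filled points are Hars, Qars, Kars and Lars2, and most other genes lie within 0.4 of 0.

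Hars, which charges tRNA with histidine, showed the largest fall of the tested synthetases in the edgeR fit. Its level was 38.5, 41.7 and 39.5 CPM in wild-type replicates 1 to 3 and 26.6, 25.8 and 23.4 CPM in knockout replicates 1 to 3. Every knockout library lay below every wild-type library. The mean fell from 39.9 ± 1.65 to 25.3 ± 1.71 CPM (1.57-fold, log2 -0.65, SE 0.09, edgeR adjusted p = 8.40e-05). The call held in all 19 alternative settings, with log2 values of -0.69 to -0.54. Hars2, the mitochondrial histidyl enzyme and its neighbour on chromosome 18, had 8.69, 6.79 and 5.01 CPM in the wild-type libraries and 5.22, 7.21 and 5.15 CPM in the knockout ones. Its genotypes overlapped (log2 -0.22, SE 0.24, edgeR adjusted p = 0.68). In GENCODE M21 exons of these genes overlap over 195 bases on opposite strands. The kit keeps strand, but whether the counting used it is not stated in the labels or headers. Other exon overlaps include Aars with Exosc6 over 1326 bases on the same strand and Iars2 with Rab3gap2 over 2034 bases on the opposite one. No exon overlap was found for Qars, Kars or Lars2. Because whole lenses were measured, fewer cells that make a transcript and less transcript per cell cannot be told apart, for this and the following genes.

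Qars, the glutaminyl enzyme of the multisynthetase complex, rose in the knockout. It was at 45.7, 46.9 and 47.4 CPM in wild-type replicates 1 to 3 and 62.4, 60.2 and 58.7 CPM in knockout replicates 1 to 3, without overlap. The mean went from 46.7 ± 0.85 to 60.4 ± 1.89 CPM (1.30-fold, log2 0.37, SE 0.08, edgeR adjusted p = 0.0027), and the call held in all 19 alternative settings. Kars, the lysyl enzyme of the same complex, which also serves mitochondria, was at 46.4, 46.2 and 48.0 CPM in wild type. In knockout replicates 1 to 3 Kars was at 55.2, 53.7 and 61.2 CPM, again above every wild-type library. Its mean rose from 46.9 ± 0.98 to 56.7 ± 3.98 CPM (1.21-fold, log2 0.27, SE 0.08, edgeR adjusted p = 0.041). This call was the least secure of those among cytosolic genes. It was lost without any one library other than knockout replicate 2 (adjusted p = 0.076 to 0.17), in DESeq2 (0.17), with a replicate block (0.060), with the photoreceptor score as covariate (0.10) and without both libraries with Xist reads (0.22).

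Lars2, which charges mitochondrial tRNA with leucine, was the 1 mitochondrial enzyme called. It was at 117, 94.5 and 78.4 CPM in wild-type replicates 1 to 3 and 81.1, 46.8 and 63.5 CPM in knockout replicates 1 to 3. Knockout replicate 1 thus lay above wild-type replicate 3, and the genotypes overlapped. The mean went from 96.7 ± 19.4 to 63.8 ± 17.1 CPM (1.53-fold, log2 -0.61, SE 0.14, edgeR adjusted p = 0.0084). The fall in Lars2 was not called without knockout replicate 2 (log2 -0.42, adjusted p = 0.059) or without wild-type replicate 1 (-0.45, 0.090), in DESeq2 (-0.60, adjusted p = 0.30) or with the photoreceptor score as covariate (-0.54, 0.055). Photoreceptor markers summed to 393, 171 and 438 CPM in wild-type replicates 1 to 3 and to 287, 163 and 169 CPM in knockout replicates 1 to 3, and their part in the Lars2 difference was not tested beyond that covariate. Lars, the cytosolic leucyl enzyme, stayed between 48.8 and 57.7 CPM in all 6 libraries (log2 0.01, SE 0.08, edgeR adjusted p = 0.96).

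**Figure D3:**
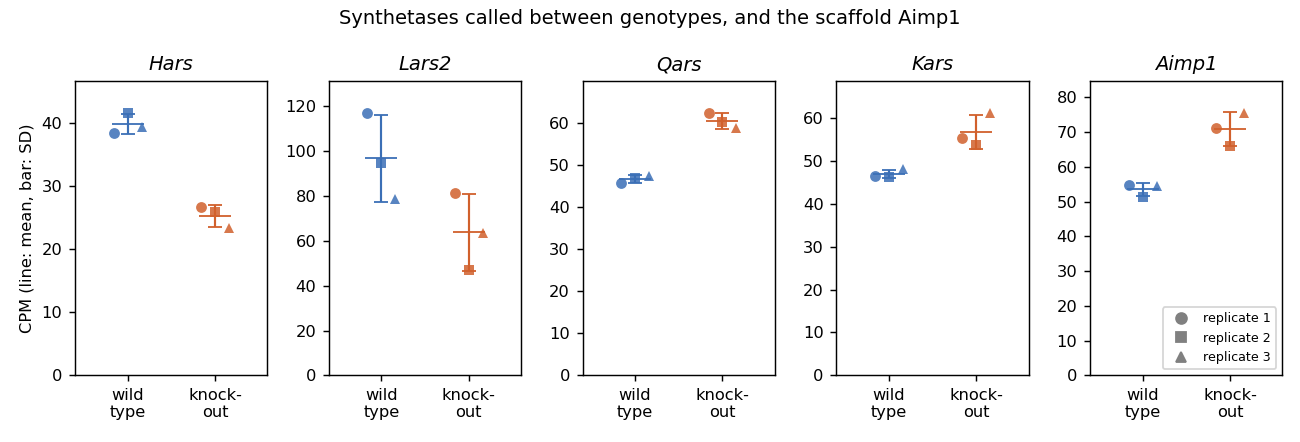
CPM of the 4 called synthetases and of the scaffold gene Aimp1 in each library (points, shaped by replicate number), with the mean (line) and SD (bar) of 3 libraries per genotype on axes starting at 0. Hars, Qars, Kars and Aimp1 show no overlap between genotypes, whereas Lars2 spreads from 46.8 to 81.1 CPM in the knockout and from 78.4 to 117 CPM in wild type.

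Of the 8 enzymes of the multisynthetase complex, Qars and Kars were called higher in edgeR (25%, against 3.02% of all genes). DESeq2 called 1 higher and limma-voom 2. Without overlap between genotypes, 2 were lower and 2 higher (12.4% and 12.1% of all genes). None was called lower in edgeR, DESeq2 or limma-voom, where 2, 1 and 2 were lower at an unadjusted 0.05 (10.7% of all genes in edgeR). The complex's median log2 fold change was 0.003. The bifunctional glutamyl-prolyl enzyme Eprs, which had the highest CPM of all members, was at 134, 134 and 126 CPM in the wild type against 124, 135 and 134 CPM (log2 0.0009, SE 0.06). Rars and Dars, for arginine and aspartate, had log2 fold changes of 0.005 and -0.01. Among 8 tested scaffold, editing, export and synthetase-like genes, 1 was called (12.5%, against 7.50% of all genes). Aimp1, the scaffold protein p43 of the complex, rose from 54.7, 51.3 and 54.5 CPM to 71.2, 66.0 and 75.6 CPM (log2 0.40, SE 0.08, edgeR adjusted p = 0.0014). Its call held in all 19 alternative settings. The scaffold genes Aimp2 and Eef1e1 had log2 fold changes of -0.23 and 0.21 with adjusted p = 0.56 and 0.76, and their genotypes overlapped. Xpot, the tRNA exporter, was at log2 0.14 (edgeR adjusted p = 0.54). Tarsl2, a threonyl synthetase-like gene that the choice by symbol left out, was at 12.7, 12.2 and 12.1 CPM in wild type. In knockout replicates 1 to 3 Tarsl2 was at 11.0, 10.3 and 8.28 CPM, without overlap (log2 -0.32, SE 0.16, edgeR adjusted p = 0.28). Of 12 cytosolic enzymes outside the complex Hars was the only one called in edgeR.

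Synthetases divide into classes by catalytic fold, and both classes held calls, too few to compare the classes. Class I enzymes, built on a Rossmann fold, numbered 18 tested, with Lars2 lower and Qars higher (11.1%, against 7.50% of all genes). Class II enzymes numbered 17 tested, with Hars lower and Kars higher (11.8%). Eprs holds a domain of each class and was counted in neither.

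The mitochondrial partners of this system had no call in edgeR. The amidotransferase subunit genes Qrsl1, Gatb and Gatc and the methionyl-tRNA formyltransferase gene Mtfmt had log2 fold changes between -0.41 and 0.24, with edgeR adjusted p of 0.41 to 0.69. None of these 4 was called or passed an unadjusted 0.05 in edgeR, DESeq2 or limma-voom, although the 3 knockout values of Mtfmt lay below those of wild type. Most mitochondrial synthetases were measured with little precision, the median SE being 0.27 on the log2 scale against 0.10 for the cytosolic class. Aars2, the mitochondrial alanyl enzyme, gave the highest log2 fold change at 0.50 but with an SE of 0.30, on 16 to 31 counts per library (edgeR adjusted p = 0.39).

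Within each library the cytosolic enzyme was compared, as a ratio, with its mitochondrial partner for the same amino acid. Library scaling enters this ratio only through the scaled prior count of 2 added to each enzyme. There were 18 such pairs for 17 amino acids, in which Eprs and Fars2 each served more than 1 pair. The wild-type log2 ratio of CPM, not corrected for length, ran from -0.84 for Lars to Lars2 up to 6.02 for Eprs to Pars2. In 11 of 18 pairs the mean ratio was lower in the knockout, and the median difference was -0.04. The Iars to Iars2 ratio was 0.54, 0.31 and 0.09 in wild type and 0.00, -0.35 and -0.42 in the knockout. The Aars to Aars2 ratio was 2.86, 2.45 and 2.81 in wild type and 1.81, 2.29 and 1.87 in the knockout. These were the 2 pairs without overlap, each with exact permutation p = 0.10, the smallest that 3 against 3 samples can give (two-sided, adjusted p = 0.90 over 18 pairs). The Lars to Lars2 ratio went from -0.84 ± 0.36 to -0.22 ± 0.41 (exact permutation p = 0.20) and the Hars to Hars2 ratio from 2.52 ± 0.40 to 2.06 ± 0.25 (exact permutation p = 0.30), both with overlap.

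Atf4 and 5 other regulators of the integrated stress response fell in the knockout, among 15 tested (40%, against 4.48% of all genes called lower). No regulator was called higher in edgeR, DESeq2 or limma-voom, where 1, 0 and 1 were higher at an unadjusted 0.05. Atf4 was at 75.8, 64.7 and 68.1 CPM in wild-type replicates 1 to 3 and 48.9, 48.6 and 54.6 CPM in knockout replicates 1 to 3 (log2 -0.46, SE 0.08, edgeR adjusted p = 8.66e-04), without overlap. Ppp1r15a, which directs the removal of phosphate from eIF2α, was 2.58-fold lower, Cebpb, a basic leucine zipper factor, 2.83-fold lower and Nupr1, a stress-induced nuclear protein, 1.31-fold lower (edgeR adjusted p = 2.70e-09, 9.72e-04 and 4.54e-05). Ddit3, the stress factor CHOP, was called at log2 -0.52 (edgeR adjusted p = 0.040), and Atf5, an ATF4-related factor, at -0.86 (0.039). The call of Ddit3 was kept in 10 of 19 alternative settings and that of Atf5 in 9. Trib3, a pseudokinase target, had 0 counts in all libraries. The list's median was -0.25.

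Amino acid genes that ATF4 is known to induce included 3 called lower of 19 tested (15.8%, against 4.48% of all genes), with a median log2 fold change of -0.20. None was called higher or passed an unadjusted 0.05 in that direction in edgeR, DESeq2 or limma-voom. Slc7a11, the cystine transporter, was 2.82-fold lower, Mthfd2, a mitochondrial folate enzyme, 1.55-fold lower and Phgdh, the first enzyme of serine synthesis, 1.33-fold lower (edgeR adjusted p = 6.62e-10, 0.0018 and 8.66e-04). Asns, asparagine synthetase, stayed at 1.62 to 2.53 CPM in all 6 libraries (log2 0.06, SE 0.36, edgeR adjusted p = 0.95).

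The 13 cytosolic synthetases known as ATF4 targets gave no call in edgeR, DESeq2 or limma-voom, where edgeR called 7.50% of all genes. Without adjustment 3, 1 and 3 of them passed 0.05 with these tools, each lower in the knockout. In edgeR these were 23.1% of the list, against 10.7% of all genes. Their median edgeR log2 fold change was -0.09, against 0.07 for the 7 other cytosolic enzymes, among which the 3 cytosolic calls lay. The 3 genes that passed unadjusted in edgeR, Iars, Mars1 and Aars, were picked out after their values were seen. Iars, the isoleucyl enzyme, was at 26.2, 24.5 and 21.3 CPM in wild-type replicates 1 to 3 and 19.4, 18.5 and 17.7 CPM in knockout replicates 1 to 3, without overlap (log2 -0.38, SE 0.12, edgeR adjusted p = 0.051), and it was called only without wild-type replicate 3 (adjusted p = 0.028). Mars1, the methionyl enzyme, was at 18.9, 20.99 and 20.2 CPM against 16.9, 16.6 and 16.2 CPM (log2 -0.27, edgeR adjusted p = 0.18), and its exons overlap those of Ddit3 over 68 bases on the opposite strand in M21. Aars had log2 -0.27 (edgeR adjusted p = 0.21), with overlap. Gars, Sars, Nars, Lars, Tars and Eprs, also on this list, had log2 fold changes of -0.09 to 0.08.

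**Figure D4:**
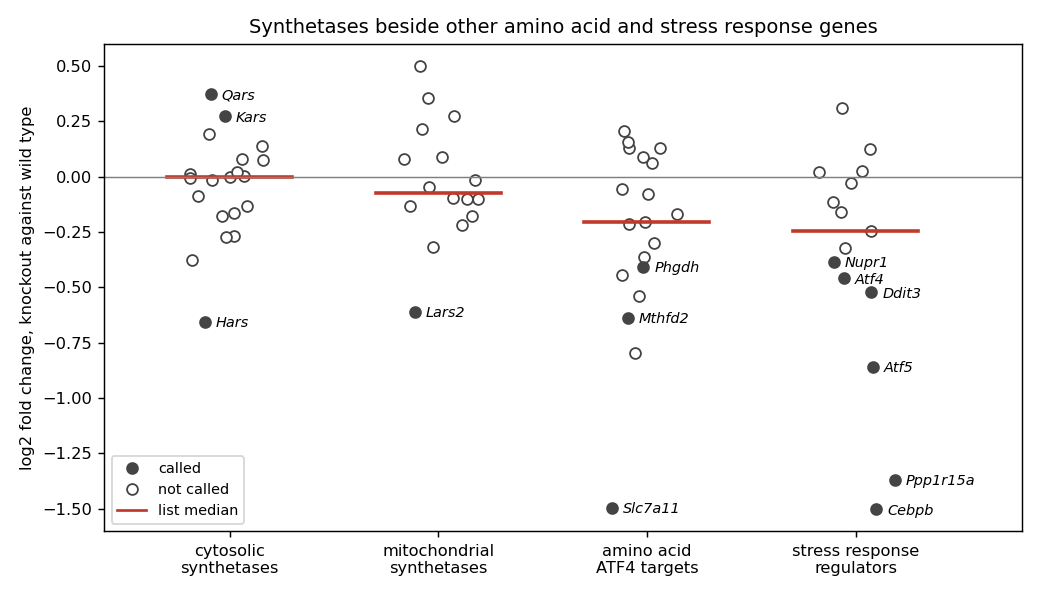
Log2 fold change (knockout against wild type) of every tested gene in 4 lists, filled and named where the edgeR adjusted p was at most 0.05, with the list median as a line. The medians are -0.002 for cytosolic synthetases, -0.07 for mitochondrial synthetases, -0.20 for amino acid targets of ATF4 and -0.25 for stress response regulators.

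Promoter sequence was examined for the element through which ATF4 and C/EBP factors act on amino acid response genes. RefSeq promoters on GRCm38.p6, from 250 bases before to 50 after a gene's start, were available for 27 of the 37 synthetases, and those without one included Cars, Hars, Lars, Nars, Rars, Vars, Wars, Hars2 and Pars2. The letters TGATGNAA were searched on both strands, so that a match on the opposite strand reads TTNCATCA. They occurred in 5 of 13 cytosolic promoters (38.5%) and in 0 of 14 mitochondrial ones, while 4.51% of all 27025 genes in the table held them. All 5 belong to the cytosolic genes known as ATF4 targets, of which 8 had a promoter, and 0 of 5 other cytosolic promoters held a match. None of these 5 genes was called in edgeR, DESeq2 or limma-voom, Iars being at an unadjusted p of 0.0039 and Aars of 0.039 in edgeR. Neither Qars, Kars nor Lars2, among the called genes, held these letters in the window.

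The matches of the 5 synthetases are shown in capitals, 5′ to 3′ along the gene's strand, because these are the cytosolic genes with the letters of the element. Those of Slc7a11 and Nupr1, both lower in the knockout, and of Asns are set beside them. In Aars the matches begin 112 bases before and 9 bases past the start. In Gars and Tars they begin 30 and 15 bases before it, and in Iars and Yars 7 and 3 bases past it.
Aars (chr8:111033700-111033871, plus strand): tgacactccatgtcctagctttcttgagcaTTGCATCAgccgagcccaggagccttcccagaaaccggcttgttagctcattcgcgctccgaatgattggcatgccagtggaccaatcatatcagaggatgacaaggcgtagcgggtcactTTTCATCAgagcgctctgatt
Gars (chr6:55037941-55038008, plus strand): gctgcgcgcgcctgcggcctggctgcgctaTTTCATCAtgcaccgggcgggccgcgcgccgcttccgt
Iars (chr13:49682107-49682159, plus strand): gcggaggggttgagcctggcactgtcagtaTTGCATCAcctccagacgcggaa
Tars (chr15:11399636-11399703, minus strand): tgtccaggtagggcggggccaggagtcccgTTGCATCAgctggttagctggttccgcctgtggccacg
Yars (chr4:129189876-129189932, plus strand): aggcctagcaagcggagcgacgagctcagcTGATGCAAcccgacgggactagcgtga
Slc7a11 (chr3:50443623-50443709, minus strand): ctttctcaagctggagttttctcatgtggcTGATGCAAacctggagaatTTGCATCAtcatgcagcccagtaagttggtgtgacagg
Nupr1 (chr7:126625543-126625610, minus strand): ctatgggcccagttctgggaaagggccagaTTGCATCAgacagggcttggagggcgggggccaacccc
Asns (chr6:7693195-7693262, minus strand): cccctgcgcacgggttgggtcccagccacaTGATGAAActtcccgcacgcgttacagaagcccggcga

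Genes that hold these letters differed in their values. Tars and Gars, with a match each, had log2 fold changes of -0.006 (SE 0.10) and -0.09 (SE 0.09), and Yars was at -0.18 (SE 0.12). Tars was at 31.3, 28.1 and 28.1 CPM in wild-type libraries and 30.6, 28.8 and 28.0 CPM in knockout ones, which lay within the spread of the libraries. Slc7a11, with 2 matches, went from 84.9, 75.4 and 86.5 CPM to 32.9, 28.8 and 25.7 CPM. Among ATF4-induced amino acid genes with a promoter in the table, 7 of 19 held the letters. Of the 5 tested among them Slc7a11 was the one called in edgeR, while 2 of 12 tested without the letters were called lower. Among stress response regulators the 1 tested gene with the letters, Nupr1, was called lower, and so were 5 of 12 tested without them. A match of letters does not show that a factor binds there.

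The remaining cytosolic enzymes gave no call. Cars (cysteine), Vars (valine), Wars (tryptophan), Farsa and Farsb (the phenylalanyl subunits) had log2 fold changes between -0.17 and 0.20, with edgeR adjusted p of 0.49 to 0.88 and overlap between genotypes. Their SEs ran from 0.11 for Cars to 0.20 for Farsa, so modest changes would not be seen. The other mitochondrial enzymes described here, apart from Lars2, Aars2 and Hars2, had log2 fold changes from -0.18 for Tars2 to 0.36 for Wars2, and each overlapped between genotypes. Rars2 varied most within a genotype in CPM among them, at 7.12, 3.00 and 7.60 CPM in wild type against 6.12, 4.70 and 5.89 CPM. The authors' deposited table listed 36 synthetases, with Hars at a fold of -1.57 and Qars at 1.30 as the 2 with a q-value of at most 0.05. Of all 11474 genes there, 7.02% had such a q-value. In its 2-fold list of 187 genes 0 were synthetases.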

How the data were processed

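Whole-lens RNA was measured in 3 knockout and 3 wild-type samples. Raw counts of reads per gene on Ensembl 104 features, with exon length in bp and a GC fraction, were deposited, per the file headers and a description sheet. HISAT2, HTSeq, edgeR and GRCm39 are named in the submitters' processing notes, without versions or roles. The deposited comparison table gives a signed fold change (a score), p-values and q-values from edgeR and the mean FPKM per genotype, per the description sheet.

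From the counts, CPM with TMM factors were computed, genes were filtered with filterByExpr (11474 left, at least 99.6% of counts in each library) and genotype was tested with edgeR 4.0.16 quasi-likelihood tests (limma 3.58.1, DESeq2 1.42.0 and R 4.3.3 for the others), two-sided, with Benjamini-Hochberg adjustment over all tested genes. SEs were derived from the log2 fold change and the F statistic. Library totals of 5384542 to 7302951 counts limit the precision of genes with few counts, and the common coefficient of biological variation was 7.19%. The fit was tested on simulated counts. Ratios used a prior count of 2. Exon overlaps come from GENCODE M21 on GRCm38, matched by identifier for all 37 genes, and promoters from RefSeq on GRCm38.p6, another build than the counts.

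The members, lists and tests were chosen with earlier results of these data known. Values in the libraries, each or as a range, are given for every called enzyme, its partner for the same amino acid and the 3 most abundant per length of each class, with up to 4 called genes of other lists and Cd24a, Atf4, Ddit3, Trib3 and Asns. Values of 1 enzyme are not reported here, although it is included in the counts, sums and medians. A planned comparison of protein sequences was not made, since no protein table was used here. Alternatives covered scaling, filters, covariates, leaving out libraries, a replicate block and other tests (DESeq2, limma-voom and edgeR's exact one).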

Additional observations from a re-analysis of the deposited data

How the results depend on the processing

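Hars, Qars and Aimp1 were called in all 19 alternative settings, Lars2 in 15 and Kars in 10, and no called gene changed sign. Scaling by library size alone gave 1344 calls over all genes (336 lower and 1008 higher, against 514 and 347) and a cytosolic median of 0.11 where the median of all genes was 0.11. DESeq2 called 1 cytosolic enzyme higher and 0 mitochondrial enzymes lower, as did the photoreceptor score as covariate (1 and 0). A replicate block left 1 cytosolic enzyme higher, Qars, with Kars at adjusted p = 0.060, and changed no other call among the synthetases. Deviations of same-numbered libraries correlated at 0.05, -0.03 and 0.03, which cannot decide whether the numbers pair the samples. Xist reads were abundant in replicate 3 of both genotypes, and a shared collection of same-numbered samples was not tested. Leaving out each library in turn gave 562 to 782 calls over all genes. Among the enzymes it gave 1 to 2 cytosolic ones lower, 1 to 2 higher and 0 to 1 mitochondrial ones lower. Pairs of enzymes without overlap numbered 3 to 5, against 2 with all libraries. Smaller groups separate more readily even without a difference, so this rise in pairs cannot be read as an effect of any library. Leaving out both libraries with Xist reads, chosen after seeing the data, left 1 cytosolic enzyme higher. DESeq2 gave 574 calls over all genes, 355 lower and 219 higher, and the causes of these shifts were not tested. The median SE was 0.27 on the log2 scale for the mitochondrial enzymes, on few counts, and 0.10 for the cytosolic ones.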
